A study of Mus musculus with 4 samples.

Results

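Endothelial cells of the mouse brain, the cells that line its blood vessels, were taken from the 2 brain libraries of a single-cell RNA study of intestine and brain in wild-type mice given NPs or left untreated. A barcode was kept with at least 500 UMIs (unique molecular identifiers, each marking 1 captured RNA molecule), at least 200 genes and at most 20% mitochondrial UMIs. It was taken as endothelial with at least 6 UMIs summed over Cldn5, Flt1, Pecam1, Ly6c1, Slco1a4 and Cdh5, fewer than 4 UMIs of the pericyte genes Kcnj8, Abcc9, Vtn and Higd1b, and fewer than 10 of the smooth muscle genes Acta2, Tagln and Myh11. It was also allowed at most 1 UMI of the microglial genes P2ry12 and Cx3cr1 and at most 3 of the astrocyte genes Slc1a2 and Gja1. These rules gave 201 cells among 12189 kept barcodes of the NPs library and 257 among 11668 of the untreated library, or 458 of 23857 brain barcodes and of 51471 kept barcodes in all 4 libraries of the study.

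The NPs brain library came from wild-type brain after 2 months of NPs, and the untreated brain library from wild-type brain that received none. The sources do not spell out what NPs stands for and do not give the number of animals behind a library. They name BALB/c mice of 5 weeks and ICR mice of 6 months without saying which strain gave which tissue or library, so strain and age cannot be told apart from treatment if the libraries differ in them. Each group is 1 library. No difference between them can be set against a spread between animals, no test was run, and every interval below is a 95% interval that covers counting error only. The intestinal libraries, from mice given NPs for 1 week and from untreated mice, were not used.

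Brain capillaries form the blood-brain barrier: their endothelial cells are sealed by tight junctions built on claudin-5, take up little fluid by vesicles, and carry glucose, amino acids and hormones across by dedicated transporters while pumping drugs back into the blood. Wnt signals from the surrounding tissue maintain this programme. Along the vessel tree the cells grade from arterial, shaped by Notch signalling, through capillary to venous, where leukocytes usually enter.

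The 2 brain libraries held 63889853 UMIs in 12226 barcodes after NPs and 70594935 UMIs in 11754 barcodes without treatment. Endothelial cells had a median of 3567 UMIs (542 to 18903) and 1892 genes in the NPs library, and of 4249 UMIs (503 to 48998) and 2153 genes in the untreated library. Their median mitochondrial share was 2.03% after NPs and 2.10% untreated. All levels below are UMIs summed over the cells of a library and scaled to 1000000 UMIs of those cells (CPM). The sums rest on 822342 UMIs in NPs cells and 1270696 UMIs in untreated cells. No barcode string occurred among the endothelial cells of both libraries, and 35 strings were shared by the kept barcodes of the 2 brain libraries as a whole.

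For 4 genes described below, which include genes of each vessel segment, the 250 bases before an annotated start are printed. They are from RefSeq on build GRCm38.p6, 5′ to 3′ on the gene's own strand. Cldn5 encodes claudin-5 and lies at chr16:18776597-18776846 (+ strand) in these windows, Gkn3, an arterial gene of mouse brain, at chr6:87388936-87389185 (− strand), Cxcl12, a chemokine, at chr6:117168285-117168534 (+ strand), and Il1r1, the interleukin-1 receptor of venous cells, at chr1:40266336-40266585 (+ strand). The Il1r1 window precedes a RefSeq start that lies inside the gene as GENCODE annotates it (chr1:40225080-40317257), not the GENCODE start of the gene. Capitals mark a match to any of 5 short motifs searched on both strands.
Cldn5: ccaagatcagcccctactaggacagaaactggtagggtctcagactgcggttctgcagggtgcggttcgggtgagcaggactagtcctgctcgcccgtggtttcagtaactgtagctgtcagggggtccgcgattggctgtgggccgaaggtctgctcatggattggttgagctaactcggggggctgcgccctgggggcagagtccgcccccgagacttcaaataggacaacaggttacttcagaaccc
Gkn3: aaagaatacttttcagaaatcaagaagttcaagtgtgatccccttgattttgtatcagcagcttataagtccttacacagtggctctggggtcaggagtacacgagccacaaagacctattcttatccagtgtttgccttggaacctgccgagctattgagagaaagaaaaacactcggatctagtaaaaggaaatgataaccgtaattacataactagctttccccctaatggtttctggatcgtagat
Cxcl12: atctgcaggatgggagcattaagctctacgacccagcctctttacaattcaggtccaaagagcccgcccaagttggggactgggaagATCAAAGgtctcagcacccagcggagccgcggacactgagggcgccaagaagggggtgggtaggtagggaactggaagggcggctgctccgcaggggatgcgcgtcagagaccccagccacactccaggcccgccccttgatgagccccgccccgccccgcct
Il1r1: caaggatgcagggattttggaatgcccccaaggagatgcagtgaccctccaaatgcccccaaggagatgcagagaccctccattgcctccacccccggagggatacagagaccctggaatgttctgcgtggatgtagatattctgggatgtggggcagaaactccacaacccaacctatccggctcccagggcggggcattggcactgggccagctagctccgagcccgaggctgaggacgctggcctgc
The motifs were CCGGAAG for ETS factors, found in 6.91% of 32851 RefSeq promoter windows of this length, CTTTGAT for the Wnt effectors TCF and LEF (3.21%), GTGGGAA for the Notch effector RBPJ (5.42%), CACGTG for HEY factors (6.02%) and TGTTTAC for FOX factors (3.17%). Of the 19 genes used to sort cells by vessel segment, 17 had a window. None of 5 arterial genes held any of the motifs. Among 7 capillary genes, Car4 held CCGGAAG, Slc16a1 held CACGTG and Cxcl12 held CTTTGAT, read from the other strand as ATCAAAG at 163 to 157 bases before the start. Among 5 venous genes, Nr2f2 and Selp held CTTTGAT and Slc38a5 held CACGTG. These are letter matches and not evidence of binding.

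Endothelial cells made up 1.65% of kept barcodes in the NPs library (exact binomial interval 1.43 to 1.89%) and 2.20% in the untreated library (1.94 to 2.49%). With every barcode thinned to 2000 UMIs, which left out 1030 NPs and 1180 untreated barcodes, the shares were 1.68% in the NPs library and 2.68% in the untreated library. The selection was applied anew to the thinned UMIs. Its fixed limits on genes of other cell types were then easier to pass, so these shares do not count the same cells. The limits on genes of other cell types removed 103 of 304 NPs barcodes and 175 of 432 untreated barcodes that had enough endothelial UMIs, most of them by the microglial genes (76 after NPs and 137 untreated). Few cells lay near the threshold: 3 NPs and 2 untreated cells had 6 or 7 UMIs of the 6 genes, and 2 NPs and 4 untreated barcodes that met all other limits had 4 or 5. The median was 87 UMIs (quartiles 54 and 123) in NPs cells and 94 UMIs (60 and 131) in untreated cells.

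The cells were chosen by their UMIs of the 6 genes, so the levels of those genes are a description and support nothing. Cldn5 stood at 8199.7 CPM in NPs cells and 7157 CPM in untreated cells, and at 74.0 and 105 CPM in the other barcodes of those libraries. It was found in 98.5% of NPs and 98.1% of untreated endothelial cells, against 2.64% of NPs and 4.52% of untreated barcodes of other kinds, which had higher median depths of 4663.5 and 5074 UMIs. Those barcodes include endothelial ones removed by the limits on other cell types, and their share is the most that free RNA could account for. Flt1, a VEGF receptor, stood at 6929 CPM after NPs and 5743 CPM untreated, Pecam1 (CD31) at 682 and 685 CPM, and Slco1a4, a carrier of organic anions, at 2068 and 1801 CPM. Ly6c1, a surface protein of mouse brain endothelium, stood at 5414 CPM after NPs and 4956 CPM untreated.

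Genes that the rule did not use also marked the cells as endothelial. All 17 of 17 further pan-endothelial genes were at least 2-fold above the other barcodes in both libraries. The share of all genes that far above the other barcodes was not counted. Summed, the 17 genes stood at 13517.5 CPM in NPs cells and 13377.7 CPM in untreated cells, against 394 and 446 CPM in other barcodes. Among them, Egfl7, a secreted endothelial factor, stood at 1618 CPM after NPs and 1534 CPM untreated, with 17.7 and 24.98 CPM in other barcodes. Ptprb, the endothelial tyrosine phosphatase VE-PTP, stood at 2042 CPM after NPs and 2092 CPM untreated. Tek, the angiopoietin receptor, was found in 74.6% of NPs and 68.9% of untreated cells, against 0.918% and 1.48% of other barcodes. Bsg (basigin), a glycoprotein abundant in barrier endothelium, reached 23729.8 CPM in NPs cells and 20218 CPM in untreated cells. Lymphatic endothelium was not represented: of its 6 genes only Flt4 reached 20 UMIs. Xist was present at 891 CPM after NPs and 823 CPM untreated, and the Y-linked genes Ddx3y, Uty, Eif2s3y and Kdm5d had no UMI in either group.

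Marker lists of 14 other cell types were summed in the same cells. Microglial genes came to 655 CPM in NPs cells and 589 CPM in untreated cells, against 25579 and 19352 CPM in other barcodes, and astrocyte genes to 336 and 436 CPM against 8654 and 9291 CPM. Fibroblast genes had no UMI after NPs and 10.2 CPM untreated. Erythrocyte genes came to 24466 CPM after NPs and 14837 CPM untreated, and choroid plexus genes to 151 CPM after NPs and 13863 CPM untreated. The cells rich in haemoglobin are described at the end of the results. The choroid plexus UMIs of NPs cells numbered 124 in 90 cells, with at most 5 in a cell, whereas 15148 of the 17616 UMIs in untreated cells were in 1 cell. T-cell genes came to 37.7 CPM after NPs and 0.787 CPM untreated, on 31 UMIs, 25 of them in 1 cell, and on 1 UMI, and neutrophil genes to 48.6 and 22.8 CPM.

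Cells were sorted into vessel segments by genes known for each. A cell was called arterial with at least 3 UMIs of Bmx, Gkn3, Sema3g, Vegfc, Efnb2 and Hey1 and at least 2 times as many as of the venous genes Slc38a5, Nr2f2, Il1r1, Ackr1 and Selp. It was called venous by the reverse, and capillary with fewer than 3 UMIs of either set and at least 3 of Mfsd2a, Tfrc, Slc16a1, Slc7a5, Spock2, Rgcc, Car4 and Cxcl12. These classes are ranges along a gradient and not separate types. In the NPs library 15 cells had exactly 2 UMIs of the arterial genes and 8 had exactly 3, and in the untreated library 15 and 11. For the venous genes 13 NPs and 23 untreated cells had exactly 2 UMIs, and 10 NPs and 14 untreated cells had exactly 3. Only 2 cells, both untreated, had at least 3 UMIs of both sets.

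**Figure D1:**
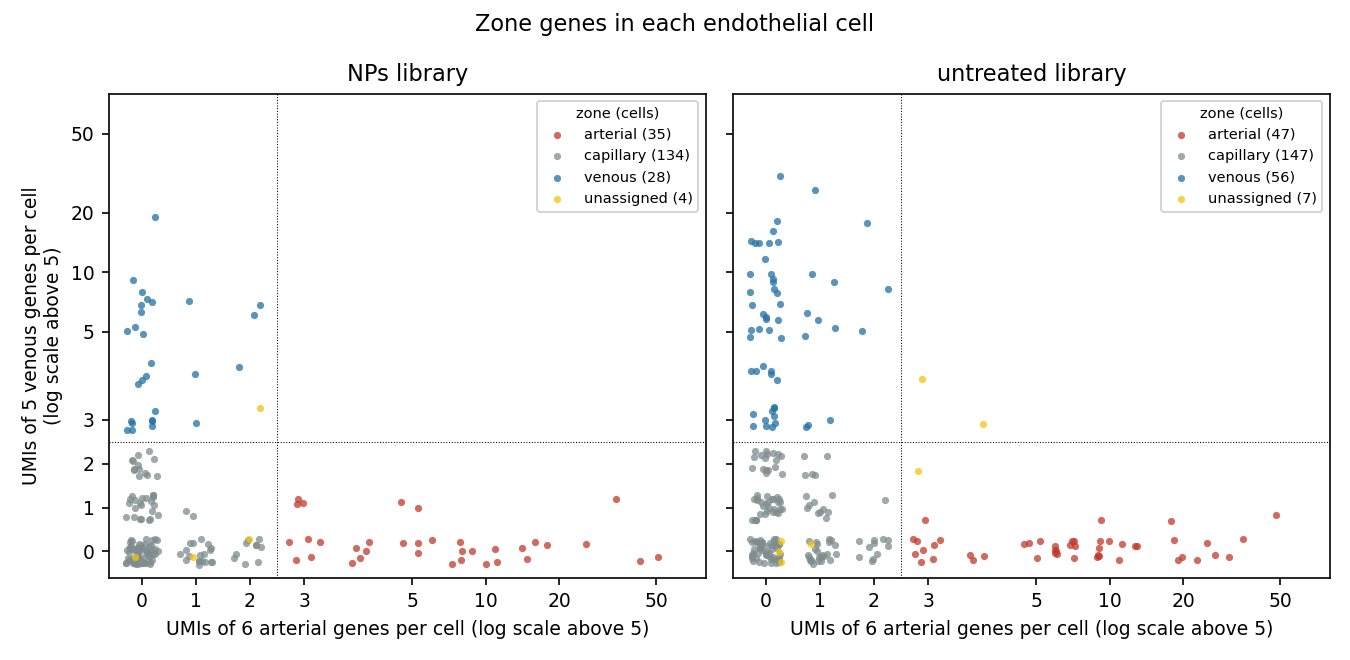
Each point is 1 endothelial cell, placed by its UMIs of the 6 arterial genes (x axis) and of the 5 venous genes (y axis), with the NPs library on the left and the untreated library on the right and colours for the zone. The arterial and venous cells lie along separate axes in both libraries, and no NPs cell and 2 untreated cells have at least 3 UMIs of both sets.

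Capillary cells were the most numerous class in both libraries, with 134 cells or 66.7% (exact binomial interval 59.7 to 73.1%) after NPs and 147 cells or 57.2% (50.9 to 63.3%) untreated. This class is set mainly by few arterial and venous UMIs, since UMIs of the capillary set were many in every class. Their median was 53, 43.5 and 32.5 in arterial, capillary and venous NPs cells and 28, 47 and 52.5 in untreated ones. Arterial cells numbered 35 or 17.4% (12.4 to 23.4%) after NPs and 47 or 18.3% (13.8 to 23.6%) untreated. Venous cells numbered 28 or 13.9% (9.46 to 19.5%) after NPs and 56 or 21.8% (16.9 to 27.3%) untreated, while 4 NPs cells and 7 untreated cells fell in no class. The arterial shares were close, the venous share was lower and the capillary share higher after NPs, and the counting intervals of the 2 libraries overlap for each class.

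Depth enters these shares, because a shallow cell reaches 3 UMIs less often. Median depth was 5838, 3131 and 4684 UMIs in arterial, capillary and venous NPs cells, and 4795, 3738 and 5495 UMIs in the untreated ones. With all cells thinned to 2000 UMIs, which left out 40 NPs and 37 untreated cells, the venous share was 6.83% after NPs and 11.4% untreated, and the arterial share 9.32% after NPs and 10.9% untreated. The venous share was lower in the NPs library under each of the alternative settings run for the shares, with values given in the closing section.

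**Figure D2:**
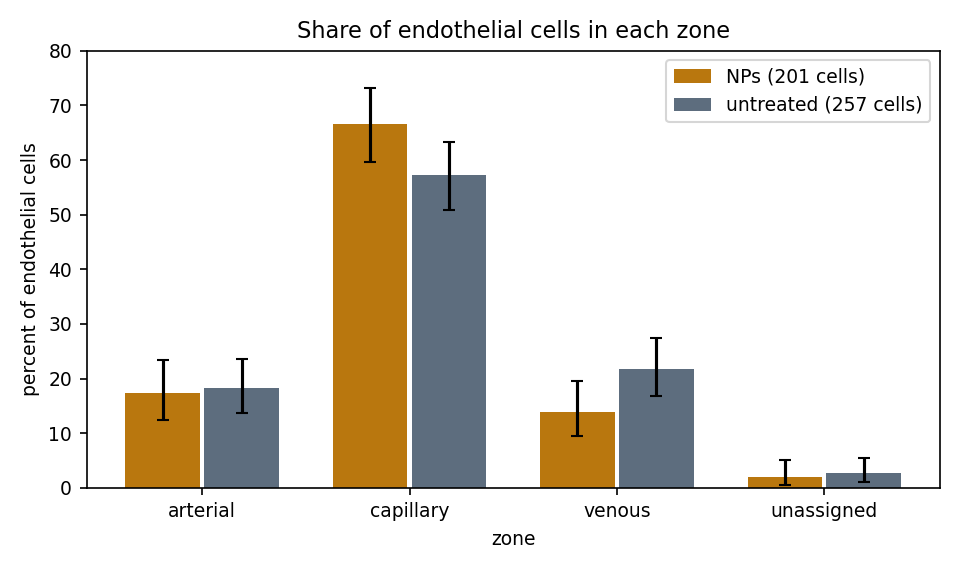
Bars give the percent of endothelial cells in each zone, NPs at left and untreated at right in each pair, with 95% exact binomial intervals for counting error only. Venous cells make up 13.9% after NPs and 21.8% untreated, and the intervals of the 2 libraries overlap in every zone.

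Levels of the sorting genes across segments are given as a description. Gkn3 was nearly confined to arterial cells, at 531 CPM in arterial, 4.53 in capillary and 0 in venous NPs cells, and at 809, 8.51 and 0 CPM in the untreated ones. Bmx, an endothelial tyrosine kinase, stood at 106, 4.53 and 0 CPM in NPs cells and 285, 11.9 and 9.73 CPM in untreated cells, in the same order of segments. On the venous side, Slc38a5, a glutamine carrier, stood at 17.0, 70.3 and 753 CPM in arterial, capillary and venous NPs cells and at 4.13, 102 and 764 CPM in untreated ones. Nr2f2, a transcription factor of venous identity, stood at 0, 22.7 and 232 CPM in NPs cells and 8.26, 25.5 and 187 CPM in untreated cells. The venous set rested on 3 of its 5 genes, since Selp had no UMI and Ackr1 was at most 1 UMI in a library.

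Arterial identity extended to genes that played no part in the sorting. Of 16 further arterial genes, 15 had at least 20 UMIs, and 11 of those were at least 2-fold above capillary cells in both libraries, with a median log2 ratio of 1.87 after NPs and 1.88 untreated. Among all 7066 genes under the same rule, 1.77% were that much higher in arterial cells and 1.78% that much lower. The 11 genes were Mgp, Fbln5, Crip1, Tm4sf1, Edn1, Unc5b, Eln, Fbln2, Jag1, Gja4 and Alpl. These lists were drawn from knowledge of the same vessel segments, and the segments were cut from the same cells, so the ratios describe the classes and are not a test.

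Matrix genes of the arterial wall were among the steepest. Mgp, an inhibitor of calcification, stood at 582 CPM in arterial and 2.27 CPM in capillary NPs cells, and at 1297 and 23.8 CPM in untreated cells. Eln, which encodes elastin, stood at 93.5 CPM in arterial NPs cells with no UMI in capillary ones, and at 244 and 5.11 CPM in untreated cells. Fbln2, which encodes fibulin-2, stood at 102 and 9.07 CPM in NPs cells and at 165 and 6.81 CPM in untreated cells. Mgp was also higher in venous than in capillary cells, at 275 CPM after NPs and 105 CPM untreated. The NPs venous level came mainly from 1 cell with 21 Mgp UMIs and 1 with 16. A large part of Mgp rested on 1 cell in each library, with 45.5% of its NPs UMIs and 51.3% of its untreated UMIs.

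Signalling genes followed. Gja4, the gap junction protein connexin-37, stood at 93.5 CPM in arterial and 18.1 CPM in capillary NPs cells and at 231 and 15.3 CPM in untreated ones. Unc5b, a netrin receptor, was 3.36-fold higher in arterial than in capillary NPs cells (2.10 to 5.49) and 3.54-fold higher in untreated ones (2.42 to 5.22). Edn1, the vasoconstrictor endothelin-1, was 2.33-fold higher after NPs (1.66 to 3.27) and 2.27-fold higher untreated (1.79 to 2.87). Of 9 measured Notch pathway genes, 4 were at least 2-fold higher in arterial cells of both libraries: the ligands Jag1 and Jag2, the target Hey1, and Efnb2. Hey1 and Efnb2 were among the sorting genes, while Jag1 and Jag2 were not. Jag2 stood at 463 CPM in arterial and 199.5 CPM in capillary NPs cells and at 429 and 201 CPM in untreated ones.

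Several capillary carriers were low in arterial cells. Car4, a membrane carbonic anhydrase, stood at 115 CPM in arterial and 750.3 CPM in capillary NPs cells and at 78.5 and 859.5 CPM in untreated ones. Tfrc, the transferrin receptor, stood at 187 and 542 CPM in NPs cells and 66.1 and 533 CPM in untreated cells, and Slc16a1, a lactate and ketone carrier, at 480.4 and 1018 CPM and at 347 and 919 CPM. These 3 belong to the capillary set, although the arterial call itself did not read that set. Of 17 Wnt pathway genes, 2, the feedback inhibitors Apcdd1 and Nkd1, were also at least 2-fold lower in arterial cells of both libraries. Apcdd1 stood at 178 CPM in arterial and 469 CPM in capillary NPs cells and at 248 and 664 CPM in untreated ones. Mt1, a metallothionein, stood at 191 and 480.5 CPM in NPs cells and 442 and 1047 CPM in untreated cells.

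Venous identity showed in fewer genes. Of 12 further venous genes 8 had at least 20 UMIs, and 5 of these, among them Lcn2, Vwf, Vcam1 and Ctsc, were at least 2-fold above capillary cells in both libraries, where 0.693% of 7067 genes were that much higher and 1.09% that much lower. Their list's median log2 ratio was 2.36 after NPs and 1.39 untreated. Vwf, the von Willebrand factor of clotting, stood at 463 CPM in venous and 70.3 CPM in capillary NPs cells, and at 207 and 37.4 CPM in untreated ones. Lcn2, a siderophore-binding protein of inflammation, stood at 290 and 9.07 CPM after NPs and 65.7 and 1.70 CPM untreated, but 55.6% of its NPs UMIs and 57.1% of its untreated UMIs came from 1 cell each.

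Adhesion and chemokine genes divided the segments in different ways. Vcam1, a leukocyte adhesion receptor, was high at both ends, with 191, 15.9 and 232 CPM in arterial, capillary and venous NPs cells and 120, 8.51 and 82.7 CPM in untreated ones. Cxcl12, a sorting gene of the capillary set, stood at 4838, 7260 and 2346 CPM in NPs cells and 2581, 5470 and 2204 CPM in untreated cells. Icam1 stood at 109 CPM in venous and 13.6 CPM in capillary NPs cells, but at 60.8 and 69.8 CPM in untreated ones, so its direction differed between the libraries.

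The untreated venous class held a cell with 14876 Ttr UMIs among 48998, classed there by 9 UMIs of Nr2f2. Without that cell the untreated venous level was 867 CPM for Slc38a5, 188 CPM for Nr2f2, 235 CPM for Vwf and 63.5 CPM for Vcam1. Each of these stayed at least 2-fold above the untreated capillary level.

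**Figure D3:**
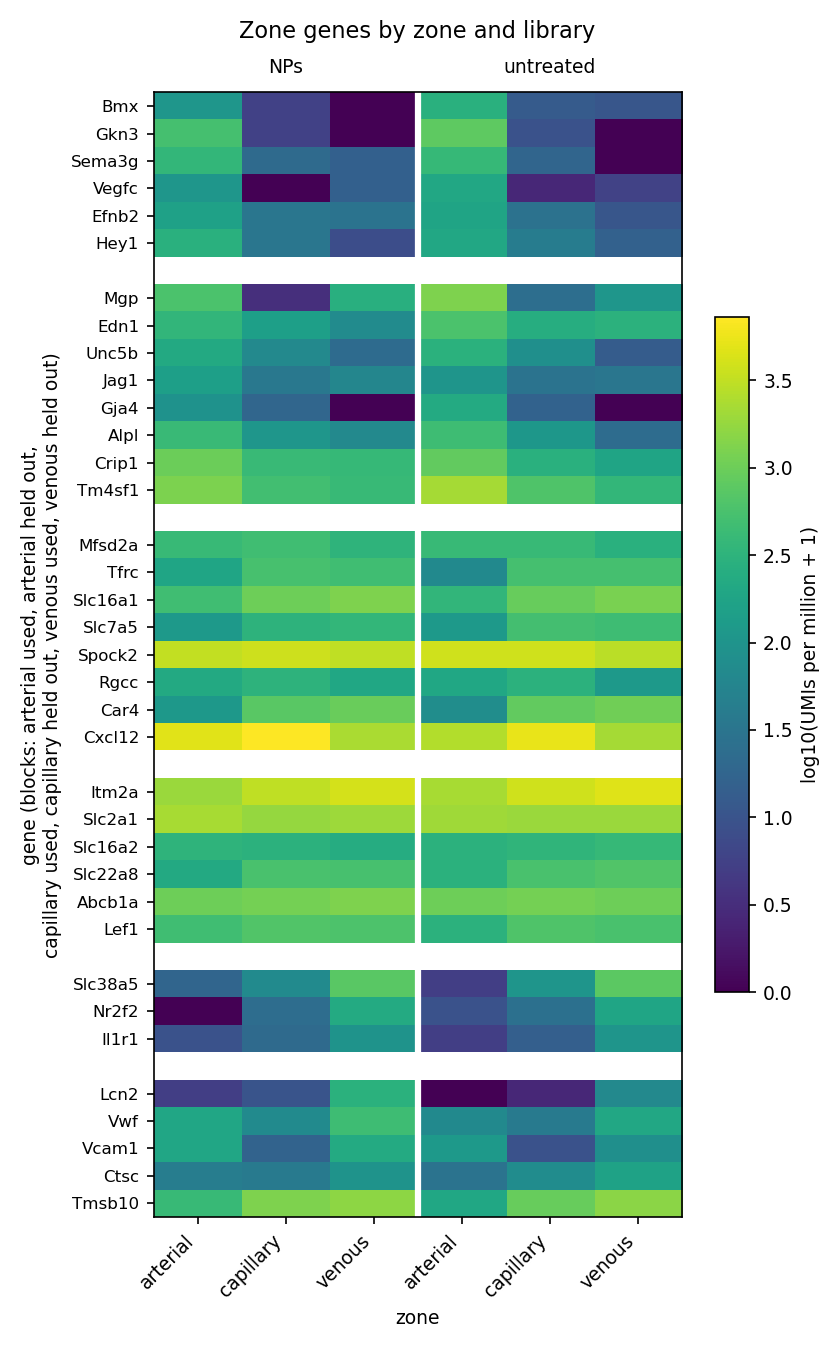
Colour gives log10 of CPM plus 1 for sorting genes and further genes of the zone lists (rows), in arterial, capillary and venous cells of the NPs library (left block) and of the untreated library (right block). Arterial genes such as Gkn3 and Mgp are highest in the arterial columns and Slc38a5 and Vwf in the venous columns of both libraries, while Slc2a1 differs little across columns.

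Junction genes and the main glucose and efflux carriers were at like levels in all segments, while some other carriers were low in arterial cells. Slc2a1, the glucose transporter GLUT1, stood at 2266, 1759 and 1984 CPM in arterial, capillary and venous NPs cells and at 2019, 1930.0 and 1934 CPM in untreated cells. Abcb1a, the drug efflux pump P-glycoprotein, stood at 1033, 1142 and 1281 CPM in NPs cells and 1019.9, 1151 and 1014 CPM in untreated cells. Mfsd2a, a lipid carrier that restrains vesicle transport, stood at 395, 469 and 319 CPM in NPs cells and 405, 402 and 282 CPM in untreated ones. None of 14 measured junction genes and none of 17 pan-endothelial genes was 2-fold higher or lower than in capillary cells, for either arterial or venous cells, in both libraries. Among all genes under this rule 1.77% were that much higher and 1.78% that much lower in arterial cells. For venous cells the shares were 0.693% and 1.09%. Finding none in lists of this length is near those shares and does not set these genes apart. Of 19 measured solute carriers of the barrier 3 were at least 2-fold lower in arterial cells of both libraries, Slc7a5, Slc16a1 and Slc38a5, and Slc38a5 was also at least 2-fold higher in venous cells. Slc7a5 stood at 119 CPM in arterial and 313 CPM in capillary NPs cells and at 116 and 504 CPM in untreated ones. All 3 are sorting genes, so their levels are a description. Of 8 measured receptors for transport across the cell 2 were that much lower in arterial cells, Tfrc and Lepr, the leptin receptor, whose arterial ratio had intervals that included 1 in both libraries (0.268, 0.00594 to 2.09, after NPs and 0.331, 0.0634 to 1.10 untreated). Of 11 further capillary genes, none differed that much in arterial cells and 1, Ivns1abp, was lower in venous cells. Summed, the 11 genes stood at 9386, 11252 and 12777 CPM in arterial, capillary and venous NPs cells. In untreated cells they stood at 9167, 12236 and 12458 CPM. They were thus not highest in capillary cells and do not set that class apart from venous cells.

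Genes outside the lists were ranked by the smaller of their ratios to the other segments in the 2 libraries, at 100 UMIs or more. At that minimum 1.22% of all genes were 2-fold higher in arterial than in capillary cells of both libraries and 1.41% 2-fold lower, against 0.293% and 0.342% for venous cells. In arterial cells Egfl8, an EGF-like secreted protein, led at 293 CPM against 20.7 CPM in other NPs endothelial cells and 128 against 21.0 CPM in untreated ones, followed by Cdk19, Timp3, Cd9 and Itprid2. Timp3, an inhibitor of matrix metalloproteinases, stood at 1505 against 375 CPM after NPs and 1780 against 383 CPM untreated. In venous cells Aldh1a1, which makes retinoic acid, led at 145 against 8.87 CPM after NPs and 221 against 26.5 CPM untreated, and was found in 28.6% of NPs and 57.1% of untreated venous cells. Ndnf, a secreted neurotrophic factor, followed at 434 against 155 CPM after NPs and 302 against 151 CPM untreated. In capillary cells Hmcn1, which encodes the matrix protein hemicentin-1, led at 465 against 196 CPM after NPs and 575 against 233 CPM untreated. Because these genes were picked as extremes, their ratios are no estimate of a typical difference.

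The endothelial transcriptomes of the 2 libraries were close. A gene was compared where the library with more of it held no fewer than 100 UMIs and 50 CPM, and where its level there reached 0.5 of that in the other barcodes. Of 2129 such genes, 11 were 2-fold or more above the untreated cells after NPs (0.517%), 10 were 2-fold or more below them (0.47%), and the median log2 ratio was −0.05. The lower group was partly made by single cells: for 3 of its 10 genes at least 50% of the UMIs of the higher library came from 1 cell. In the other barcodes of the same libraries, 3 of the 11 higher and 4 of the 10 lower genes were also at least 2-fold apart. The share of all 2129 genes that far apart in the other barcodes was not counted, so these numbers are a description. The count of genes depended on the minimum of UMIs, being 23 higher and 29 lower at 50 UMIs and 3 higher and 4 lower at 200 UMIs.

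**Figure D4:**
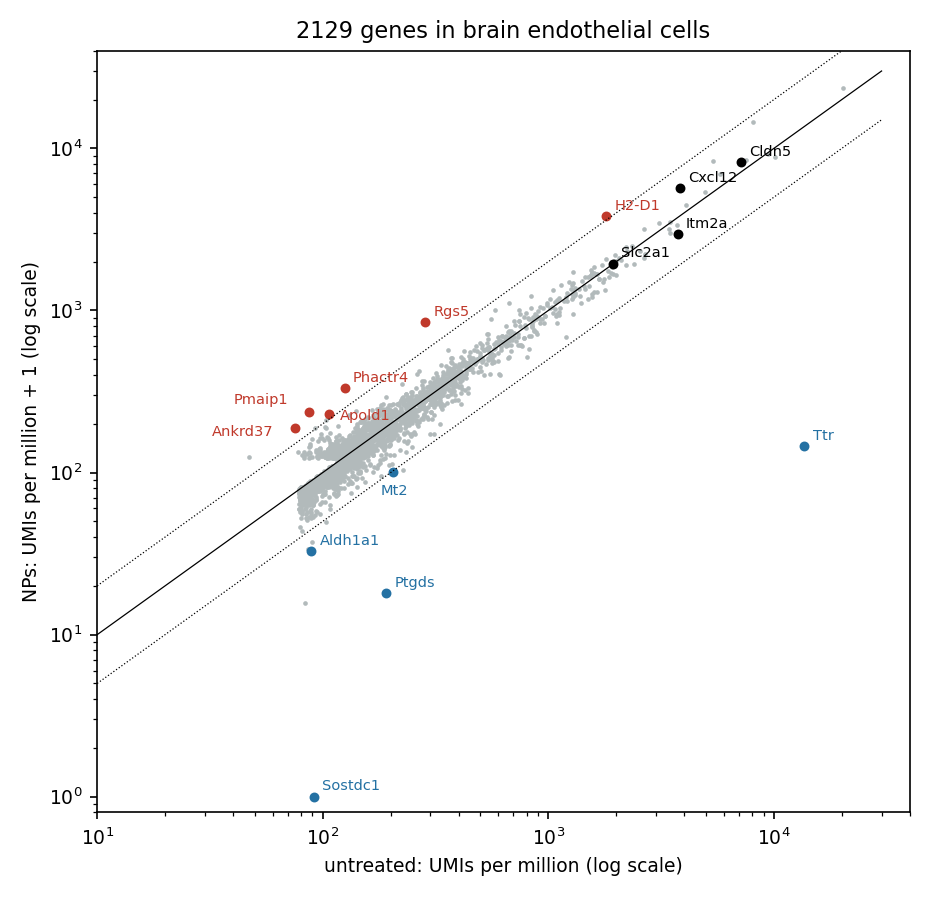
Each point is 1 of 2129 genes, placed by its level in untreated endothelial cells (x axis) and in NPs endothelial cells (y axis), both in CPM on log scales. The bulk lies along the line of equal levels, with 11 genes 2-fold or more above and 10 as far below it after NPs, and Ttr and Sostdc1 far below the line.

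The largest ratio was that of Rgs5 (chr1:169655501-169695813, + strand, GRCm38, here and below as annotated by GENCODE), a regulator of G-protein signalling that is also a marker of pericytes. It stood at 846 CPM in NPs cells and 283 CPM in untreated cells, a 2.99-fold difference (2.63 to 3.40), while it was 0.571 of the untreated level in other barcodes. It was found in 34.3% of NPs and 19.1% of untreated endothelial cells, against 1.69% and 3.34% of other barcodes. The difference lay mainly outside capillary cells: Rgs5 stood at 982, 594 and 1470 CPM in arterial, capillary and venous NPs cells and at 37.2, 456 and 122 CPM in untreated ones. In the cells with at least 3 Rgs5 UMIs, 53 after NPs and 23 untreated, the other pericyte genes Pdgfrb, Atp13a5 and Notch3 had 2, 1 and 3 UMIs after NPs and no UMI untreated. The 4 pericyte genes limited by the selection had 28 UMIs in those NPs cells and 19 in those untreated cells, and the pericyte list as a whole came to 906 CPM after NPs and 312 CPM untreated, most of it Rgs5. In capillary cells alone the ratio was 1.30, a log2 ratio of 0.38.

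Pmaip1, Phactr4 and Ankrd37 were higher after NPs in every segment. The first, the pro-apoptotic protein also called Noxa, stood at 235 CPM in NPs cells and 86.6 CPM in untreated cells (2.71-fold, 2.13 to 3.46), with 149, 288 and 203 CPM in arterial, capillary and venous NPs cells and 53.7, 124 and 55.9 CPM in untreated ones. Phactr4 (chr4:132355923-132422489, − strand), a regulator of protein phosphatase 1 and actin, stood at 332 CPM after NPs and 125 CPM untreated (2.65-fold, 2.17 to 3.25). Ankrd37, an ankyrin repeat protein known as a target of hypoxia-inducible factor, stood at 187 CPM after NPs and 75.5 CPM untreated (2.48-fold, 1.91 to 3.23). All of them were near 1 in the other barcodes, at 1.18, 1.03 and 1.12 times the untreated level. They stayed at least 2-fold higher under all 14 alternatives run for single genes.

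Apold1, an early-response gene of endothelium, stood at 230 CPM in NPs cells and 107 CPM in untreated cells (2.15-fold, 1.71 to 2.70). Ppp1r16b, an endothelial regulatory subunit of protein phosphatase 1, stood at 210.4 CPM after NPs and 103 CPM untreated (2.04-fold, 1.62 to 2.58), and Adamts1, a secreted metalloproteinase, at 189.7 and 102 CPM (1.85-fold, 1.46 to 2.36). Apold1 fell short of 2-fold as a mean over cells, with a log2 ratio of 0.66, and Adamts1 came to 0.45 without the microglial and astrocyte limits. H2-D1 (chr17:35262730-35267499, + strand), a heavy chain of MHC class I, stood at 3803 CPM after NPs and 1801 CPM untreated (2.11-fold, 2.00 to 2.23), and was 2.77-fold higher in the other barcodes too. Tpm3-rs7, a sequence related to tropomyosin 3 whose reads may be shared with its near-identical parent, stood at 188 CPM after NPs and 92.1 CPM untreated, with a 2.48-fold difference in other barcodes. Alas2, an enzyme of red-cell haem synthesis, was found in 8 NPs and 4 untreated cells, all of them rich in haemoglobin.

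On the lower side, Acaa2, the last enzyme of mitochondrial fatty acid oxidation, stood at 48.6 CPM after NPs and 103 CPM untreated (0.472, 0.323 to 0.677), with 25.95% of its untreated UMIs in 1 cell. In capillary cells alone its log2 ratio was −0.23.

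Aldh1a1 and Dhrs3, whose products act on retinoids, were among the 10 lower genes, and they are set together here only after their values were seen. Aldh1a1 (chr19:20492715-20643465, + strand) stood at 31.6 CPM after NPs and 88.9 CPM untreated (0.356, 0.223 to 0.548), and Dhrs3, which reduces retinaldehyde, at 32.8 and 85.8 CPM (0.383, 0.241 to 0.588). In the other barcodes Aldh1a1 and Dhrs3 were at 0.666 and 0.972 of the untreated level. Aldh1a1 is the venous gene named above, and within venous cells it stood at 145 CPM after NPs and 221 CPM untreated. Without the microglial and astrocyte limits its log2 ratio was −0.67. Plpp1, a lipid phosphatase, stood at 36.5 CPM after NPs and 89.7 CPM untreated, with 43.9% of its untreated UMIs in 1 cell, and its log2 ratio was −0.73 without the top cell of each library.

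The metallothionein Mt2 stood at 99.7 CPM in NPs cells and 205 CPM in untreated cells (0.485, 0.374 to 0.624), and was lower by a like ratio of 0.47 in the other barcodes. Ttr, the thyroxine carrier of the choroid plexus, stood at 145 CPM after NPs and 13632 CPM untreated, with 85.9% of the untreated UMIs in 1 cell. It was found in 99.2% of untreated endothelial cells at a median of 9 UMIs outside that cell, and in 99.9% of the other untreated barcodes, whereas 43.3% of NPs endothelial cells and 51.9% of other NPs barcodes had a UMI. In other barcodes it stood at 0.0997 of the untreated level. Sostdc1 had no UMI after NPs and 116 UMIs untreated, 91.4% of them in 1 cell, and Ptgds stood at 17.0 CPM after NPs and 191 CPM untreated, 77.0% in 1 cell. Both are expressed by choroid plexus or meningeal cells.

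Groups of genes were described by the number of members at least 1.5-fold apart among those with at least 20 UMIs in the higher library. Under that rule 5.71% of 7587 genes were higher and 10.5% lower after NPs, so a list with about that share stands no further apart than genes in general. Over the 2129 genes of sufficient level the shares were 2.07% higher and 3.66% lower.

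**Figure D5:**
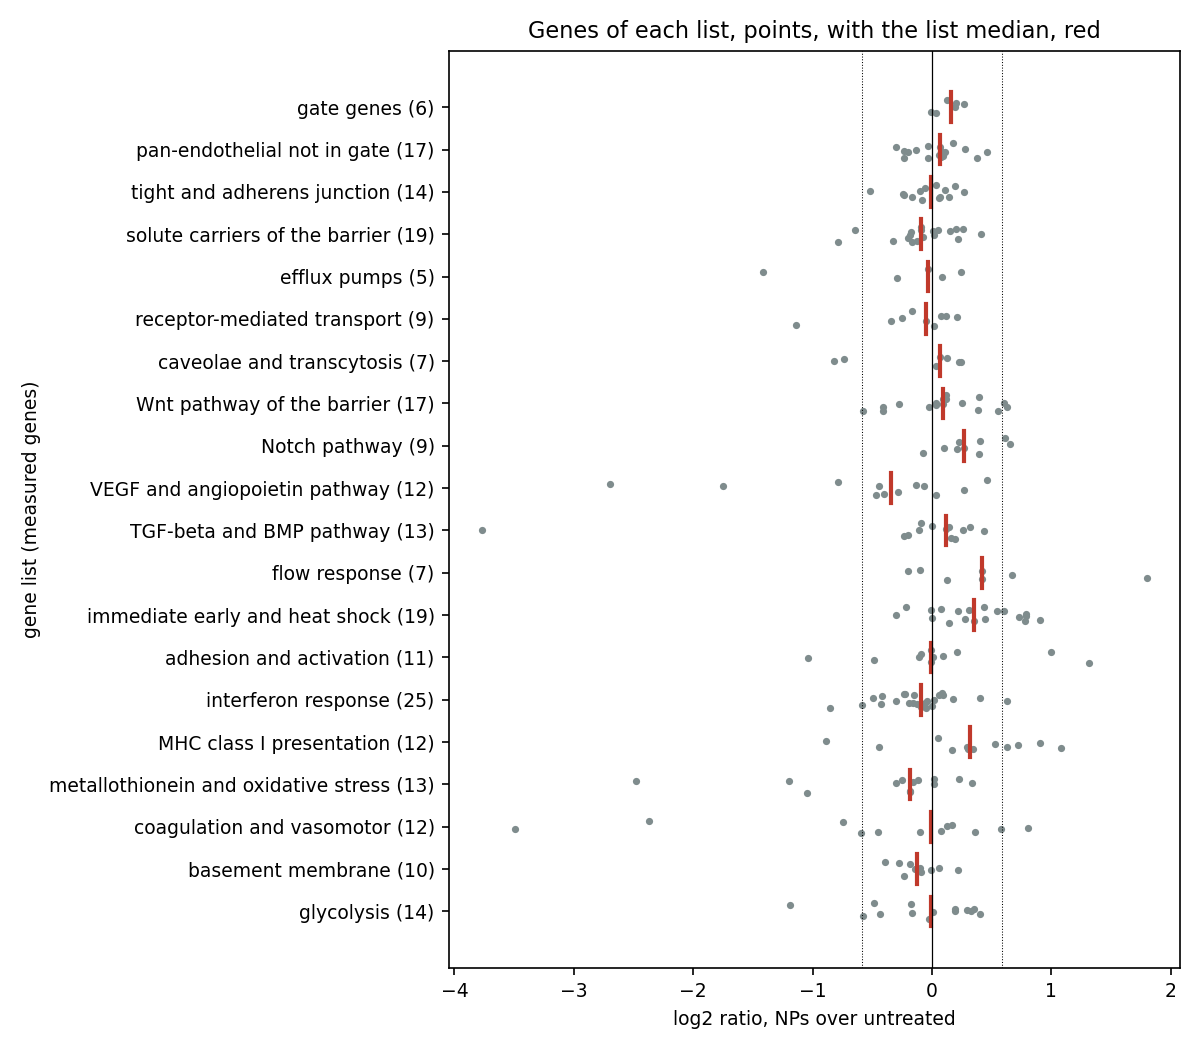
Each point is the log2 ratio, NPs over untreated, of 1 measured gene of the list named on the y axis, and the red mark is the list's median. The immediate early, MHC class I and flow lists have medians of 0.35, 0.32 and 0.42, which in capillary cells alone are 0.18, 0.34 and −0.0022, while the junction, solute carrier and efflux lists have medians of −0.01, −0.09 and −0.03.

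The barrier lists stood near equality. Of 14 junction genes none was 1.5-fold apart, with a median log2 ratio of −0.01, and Ocln (occludin) stood at 293 CPM after NPs and 313 CPM untreated and Tjp1 (ZO-1) at 643 and 616 CPM. Of 19 solute carriers none was higher and 2 were lower: Slc7a5, a carrier of large neutral amino acids, at 263 CPM after NPs and 411 CPM untreated (0.639, 0.543 to 0.751), and Slc38a5 at 173 and 298 CPM (0.579, 0.474 to 0.704). Slc7a5 was at 0.661 and Slc38a5 at 0.517 of the untreated level in the other barcodes. Within venous cells Slc38a5 stood at 753 CPM after NPs and 764 CPM untreated, or 867 CPM untreated without the cell rich in Ttr. Slc38a5 is a venous sorting gene, so its level in that class is set in part by the sorting and is a description. Without the microglial and astrocyte limits the log2 ratios of Slc7a5 and Slc38a5 were −0.36 and −0.32, under 1.5-fold. The glucose carrier Slc2a1 stood at 1942 CPM after NPs and 1930.4 CPM untreated. Of 5 efflux pumps, Abca2 was lower on 9 NPs and 37 untreated UMIs, while Abcb1a stood at 1133 and 1070.3 CPM and Abcg2 at 689 and 704 CPM. Of 9 receptors for transport across the cell, 1 was lower, the leptin receptor Lepr, at 12.2 CPM after NPs and 26.8 CPM untreated, and of 7 genes of caveolae and vesicles, Ehd4 and Plvap were lower, of which Ehd4 came to −0.08 and Plvap to 0.92 on the log2 scale without those limits. None of 10 basement membrane genes was 1.5-fold apart.

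Signalling lists showed single genes rather than whole lists apart. Of 17 Wnt pathway genes 2 were higher, among them the co-receptor Reck (68.1 CPM after NPs and 44.9 CPM untreated), and Lef1, a nuclear effector, stood at 593 and 547 CPM. Of 9 Notch pathway genes 2 were higher, Jag1 at 70.5 CPM after NPs and 44.9 CPM untreated and Hey1 at 99.7 and 65.3 CPM, with a list median of 0.27. In capillary cells alone that median was 0.0056, and Jag1 and Hey1 came to 0.23 and −0.36 on the log2 scale. Of 12 genes of VEGF and angiopoietin signalling none was higher and 3 were lower, with a median of −0.34: the co-receptor Nrp2 at 53.5 CPM after NPs and 92.1 CPM untreated, the apelin receptor Aplnr on 5 NPs and 26 untreated UMIs, and Esm1, whose UMIs in each library came from 1 cell. The main receptor Kdr (VEGFR2) stood at 925 CPM after NPs and 967 CPM untreated. Of 13 TGF-beta and BMP genes 1 was lower, Bmp6, on 1 NPs and 21 untreated UMIs. Without the microglial and astrocyte limits the VEGF and angiopoietin median was 0.00033 and Nrp2 came to −0.26 on the log2 scale, and after thinning to 2000 UMIs Reck came to 0.39.

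Genes that follow blood flow were higher in part. Of 7, Klf4 and Adm were higher and none was lower, with a median of 0.42 against 0.01 in the other barcodes. In capillary cells alone the list median was −0.0022, while Klf4 came to 0.64 and Adm to 0.90 on the log2 scale. Klf4, a flow-induced transcription factor, stood at 884 CPM after NPs and 556 CPM untreated (1.59-fold, 1.43 to 1.77), with a 1.54-fold difference in the other barcodes. Its relative Klf2 stood at 1716 CPM after NPs and 1280.4 CPM untreated (1.34-fold, 1.25 to 1.44).

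The immediate early and heat shock list had the largest number of members on 1 side, with 6 of 19 higher, none lower and a median of 0.35, against −0.02 in the other barcodes. Among all genes under this rule 5.71% were higher. Summed, the list stood at 4929 CPM in NPs and 3631 CPM in untreated endothelial cells, below the 8375 and 8127 CPM of other barcodes. Only 7 of the 19 were of sufficient level. Jun stood at 999.6 CPM after NPs and 578 CPM untreated (1.73-fold, 1.56 to 1.91), and Junb at 325 and 190 CPM (1.71-fold, 1.43 to 2.05), both subunits of the AP-1 factor. Dusp1, a phosphatase of MAP kinases, stood at 226 CPM after NPs and 131 CPM untreated, Btg2, an antiproliferative early gene, at 180.0 and 96.0 CPM, and the inducible HSP70 genes Hspa1a and Hspa1b at 162 and 97.6 CPM and at 66.9 and 44.1 CPM. In the other barcodes Jun was 1.18 and Junb 1.02 times the untreated level. Fos stood at 233 CPM after NPs and 211 CPM untreated and Egr1 at 53.5 and 66.1 CPM, so not all early genes were higher. In capillary cells alone the list median was 0.18, and the log2 ratios of Junb and Dusp1 were 0.55 and 0.48, under 1.5-fold. Hspa1a and Hspa1b are near-identical and may share reads.

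Immune lists were mixed. Of 12 genes of MHC class I presentation 4 stood higher and 1 stood lower, and the list median was 0.32 in endothelial cells and 0.73 in the other barcodes. H2-K1 stood at 1110.2 CPM after NPs and 672 CPM untreated (1.65-fold, 1.503 to 1.82) and was 2.23-fold higher in other barcodes, H2-Q6 stood at 69.3 and 37.0 CPM, H2-Q7 at 54.7 and 35.4 CPM, and B2m, the light chain, stood at 1327 and 1045 CPM (1.27-fold). These heavy chain genes are near-identical copies that may share reads. Tap2, a subunit of the peptide transporter, was lower, at 58.4 CPM after NPs and 108 CPM untreated (0.541, 0.381 to 0.757), and came to −0.41 on the log2 scale without the microglial and astrocyte limits. Of 25 interferon response genes 1 was higher, Stat2, and 2 lower, Bst2 at 173 CPM after NPs and 312 CPM untreated (0.554, 0.454 to 0.673) and Ifi27l2a. As a mean over cells the log2 ratio of Bst2 was −0.55, and after thinning that of Stat2 was 0.30. The interferon median was −0.09 in endothelial cells and 0.50 in the other barcodes of the same libraries, and Isg15 stood at 229.8 CPM after NPs and 257 CPM untreated in endothelial cells.

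Of 11 genes of adhesion and activation 2 were higher and 1 lower. Vcam1 stood at 107 CPM after NPs and 53.5 CPM untreated (2.00-fold, 1.44 to 2.79) in 11.9% of NPs and 8.56% of untreated cells, and Icam1, another leukocyte receptor, at 28.0 and 57.4 CPM (0.487, 0.291 to 0.787). Both shares lie below those in other barcodes, which were 23.3% and 26.9% for Vcam1 and 27.0% and 23.7% for Icam1, so no difference is read from the shares. Without the microglial and astrocyte limits the log2 ratios of Vcam1 and Icam1 were 0.13 and −0.31. Lcn2 stood at 54.7 CPM after NPs and 22.0 CPM untreated in 4.98% and 3.50% of cells, and was 5.57-fold higher in other barcodes. The selectins Sele and Selp, Madcam1 and Il6 had no UMI in either group, which allows up to 3.65 CPM in NPs cells and 2.36 CPM in untreated cells. Cxcl12, a chemokine that retains leukocytes at the vessel wall, stood at 5693 CPM after NPs and 3827 CPM untreated (1.49-fold, 1.43 to 1.55), and at 0.813 of the untreated level in other barcodes. By the segment values above, its level differed most between the libraries in arterial cells and least in venous cells.

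Stress and vessel tone genes were mixed. Of 13 genes of metallothionein and oxidative stress none was higher and 3 were lower: Mt1 (chr8:94179082-94180327, + strand) at 375 CPM after NPs and 861 CPM untreated (0.435, 0.382 to 0.494), Mt2, and haem oxygenase Hmox1 on 5 NPs and 43 untreated UMIs (0.180, 0.0555 to 0.453). Mt1 was lower in every segment, at 191, 480.5 and 347 CPM in arterial, capillary and venous NPs cells and 442, 1047 and 863 CPM in untreated ones, and it stood at 0.609 of the untreated level in the other barcodes. It is not among the 10 lower genes above, because its level in untreated endothelial cells was under 0.5 of that in the other untreated barcodes. Of 12 genes of coagulation and vessel tone, Vwf (chr6:125546774-125686679, + strand) was higher, at 171 CPM after NPs and 98.4 CPM untreated (1.74-fold, 1.36 to 2.24). The part of the segment shares in this difference was not tested. Edn1 was lower, at 197 CPM after NPs and 330 CPM untreated (0.597, 0.495 to 0.718), and lower in all 3 segments, and Ednrb, Ptgds and Ptgis were lower on at most 14 NPs UMIs each. Without the microglial and astrocyte limits Edn1 came to −0.22 on the log2 scale, and without cells holding 2% of another cell type's UMIs Vwf came to 0.48. Of 14 glycolysis genes 1 was lower, Ldhb, with 52.3% of its untreated UMIs in 1 cell and a log2 ratio of −0.35 without the top cell of each library.

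Some cells stood apart within the selection. Leiden clusters of the endothelial cells, numbering 8, included 3 led by genes of other cell types and given no name. One with 66 NPs and 23 untreated cells was led by the leukocyte genes Cd74, H2-Aa and Cybb, one with 7 NPs and 43 untreated cells by the choroid plexus genes Enpp2 and Ttr, and one with 24 NPs and 41 untreated cells by haemoglobin genes. The numbers differ between the libraries, and the part of these clusters in the differences between NPs and untreated cells was not tested. Leading genes were ranked on UMIs summed over a cluster, so a few of its cells can set them. Of all endothelial cells, 25 after NPs and 29 untreated had any UMI of the erythrocyte genes. In each library 1 cell was rich in Plvap, the diaphragm protein of fenestrated vessels, with 19 UMIs after NPs and 47 UMIs untreated, against 0 and 2 UMIs in all other endothelial cells together. These cells had no UMI of Cldn5, Slco1a4, Mfsd2a, Slc2a1 or Lef1 and carried Esm1 (2 UMIs after NPs and 20 untreated), Plpp1 (5 and 50) and Kdr (13 and 42). Both were classed as arterial by their sorting genes. Haemoglobin genes made up at least 2% of the UMIs in 8 NPs cells (3.98%, 1.73 to 7.69%) and 5 untreated cells (1.95%, 0.635 to 4.48%), reaching 65.0% after NPs and 71.0% untreated, against 0.100% of NPs and 0.123% of untreated barcodes of other kinds. These cells had 28 to 338 UMIs of the 6 endothelial genes after NPs and 73 to 161 untreated, and they held all Alas2 UMIs. The untreated cell with 14876 Ttr UMIs had 6 UMIs of the 6 genes, the lowest number allowed. Scrublet called 2 NPs and 2 untreated endothelial cells doublets.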

How the data were processed

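The authors deposited, for each of the 4 libraries, a matrix of UMI counts per gene and barcode with its gene and barcode lists, per the file headers. Per the submitters' processing notes they used Cell Ranger 5.0.1 and build GRCm38. The counts are whole numbers and not normalized. A library held 55450 gene rows, and the 108 symbols that occurred more than once were summed.

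From these counts, barcodes were filtered and endothelial cells chosen as stated above, with no doublet caller in the reported values and Scrublet as an alternative. The members, the gene lists and the comparisons were chosen with earlier results of these data known. UMIs were summed over the cells of a library, and over each vessel segment, and divided by the total of those cells. Ratios have conditional binomial intervals at 95%, and a count of 0 was given the level that 3 counts allow. No test was run, since each group is 1 library. Genes were named by rule: the 10 largest and 10 smallest ratios among genes of sufficient level, leaving out mitochondrial, ribosomal, haemoglobin and numbered genes, up to 4 members of each list, all sorting genes and all further segment genes, and the 5 leading unlisted genes of a segment. Other named genes were chosen after their values were seen. A few genes that the rule would name are not reported here. The ratio code was tested on simulated data. Alternatives changed the filters, the gene minimum, the scaling, the depth and the sorting of cells, and included Leiden clusters. Promoter sequences are RefSeq's on GRCm38.p6, and gene positions GENCODE's on GRCm38. The analysis used Python 3.11.15 with numpy 2.4.6, scipy 1.17.1, pandas 2.3.3 and scanpy 1.11.5.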

Additional observations from a re-analysis of the deposited data

How the results depend on the processing

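No paired analysis was possible because each group is 1 library, and for the same reason no library could be left out. The counts of genes at least 2-fold apart were 11 higher and 10 lower after NPs. They were 23 and 29 with a minimum of 50 UMIs, 3 and 4 with 200 UMIs, 5 and 3 after thinning to 2000 UMIs, and 3 and 5 in capillary cells alone. Genes lower numbered 23 without the filter on the other barcodes and 6 with at least 10 UMIs of the endothelial genes. Some alternatives were added after seeing the data. Leaving out cells with at least 2% of their UMIs in a marker list of another cell type gave 5 lower genes. Dropping the microglial and astrocyte limits gave 28 higher and 119 lower. Leaving out the cell with most UMIs of a gene in each library was also added, for single genes alone. List genes at least 1.5-fold apart numbered 23 higher and 30 lower, each counted once. They became 19 lower at 50 UMIs per member, 13 higher in capillary cells alone and 38 higher without the microglial and astrocyte limits. The endothelial share was 2.68% of untreated barcodes after thinning, and 2.30% of NPs and 3.42% of untreated barcodes without those limits.

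Arterial, capillary and venous shares after thinning were 9.32%, 82.6% and 6.83% in NPs cells and 10.9%, 75.5% and 11.4% in untreated cells. With a minimum of 5 sorting UMIs they were 10.9%, 80.6% and 6.47% after NPs and 13.6%, 70.4% and 14.4% untreated. With a minimum of 2, the capillary share was 55.2% after NPs and 44.0% untreated and the venous share 20.4% and 30.4%. Leiden clusters gave arterial shares of 28.9% after NPs and 30.4% untreated and venous shares of 8.96% and 11.3%, and named no capillary cluster, so that share has no value there. The log2 ratio of Ldhb changed sign to 0.019 as a mean over cells and to 0.36 in capillary cells alone, that of Gja5 to −1.01 and of Ptgs1 to −0.037 as means over cells, and that of Esm1 to 0.46 without the microglial and astrocyte limits. The cause of these changes was not tested. The remaining 85 values that answer a comparison stayed near their reported size. For single genes and lists 2200 values stayed near it as well, and 200 moved. A change of sign was counted apart only where the reported ratio was at least 2-fold for a gene or 1.5-fold for a list. Smaller ratios also changed sign. Among them, Plvap went from −0.74 to 0.92 on the log2 scale without the microglial and astrocyte limits. Hey1 went from 0.61 to −0.36 in capillary cells alone. Venous values rest on 28 cells after NPs and 56 untreated, and intervals are wide for genes with few UMIs.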
